A study of Arabidopsis thaliana with 9 samples.

Results

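The 121 probe sets described here differed in roots from the last-actuated tube of a jet flight and lay close together in the other groups. They are 121 of the 16722 probe sets of the array that are paired with exactly 1 gene, and each belongs to a different locus. They were chosen by measured values. All 3 last-actuated arrays had to lie above, or all 3 below, the other 6 arrays. Both the last-actuated minus ground and the last-actuated minus first-actuated difference of group means had to reach 0.5 on the log2 scale with the same sign. The first-actuated and ground means had to lie within 0.4 of each other, and the highest group mean had to be at least 5. Chloroplast-encoded loci, symbols starting UGT, BGLU, WRKY or XTH, and 3 single genes were left out by name. Of the 121, 47 were higher in last-actuated roots and 74 were lower. Because these values chose the members, the members' differences are given as a description without a test.

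RNA came from whole roots of 10-day-old Arabidopsis thaliana seedlings of the Wassilewskija background and was hybridised to Affymetrix AraGene 1.0 ST arrays. Seedlings of all groups grew at 19 °C with 0.5% sucrose and 24 h of light per day. All groups, controls included, carried pCaMV35S:14-3-3κ:GFP, a fusion of a 14-3-3 protein to green fluorescent protein under a strong viral promoter active in most plant tissues, so every value is from overexpressors. The groups were last-actuated, first-actuated and ground roots, with 3 arrays each. Seedlings sat in sealed fixation tubes of Kennedy Space Center design, which flood plants with RNAlater, a fixative that preserves RNA, when actuated.

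The last-actuated tube was fixed after the parabola, which followed a steep climb at 4 g for some 30 s and gave about 10 s of microgravity, then a short pull-up above normal gravity. The first-actuated tube was fixed earlier, in the low-altitude acceleration, and so before the climb, per the labels' protocol. The ground tube, in the hands of a person, was actuated while the jet was in the air. The design text instead puts in-flight actuation near 1.5 min into regained level flight and does not separate the tubes, so the order of events rests on the protocol. The 3 arrays of a group were root pools of a single tube. Their spread, and any p-value built on it, is that between pools, so a tube and its condition cannot be told apart.

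Roots read gravity through dense starch-filled plastids in the root cap and respond to mechanical stimulation with rapid changes in calcium, reactive oxygen and transcripts. Genes for chaperones, cell wall loosening enzymes, hormone response and defence proteins are known for changing quickly in stimulated or stressed plants. The 14-3-3 proteins bind phosphorylated partners and act in many such signalling routes.

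Few of the 121 genes carry a symbol in the tables used: 4 of the 47 higher and 10 of the 74 lower. The others are listed by locus only. Where a protein family is named for such a locus below, it is general knowledge of the Arabidopsis genome and not an entry of these tables. Loci without a stated role are those whose role is not certain.

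Among the 47 higher members the median last-actuated minus ground difference was 0.71 and the median last-actuated minus first-actuated difference 0.70, which are 1.64-fold and 1.63-fold. Among the 74 lower members the medians were -0.74 and -0.77, which put last-actuated roots at 0.597 of the ground level and 0.584 of the first-actuated level. Most differences were under 1 in size. Both differences reached 1 in size for 6 higher and 8 lower members. Over all 17481 named probe sets the median differences of the same comparisons were 0.00 and 0.00.

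**Figure D1:**
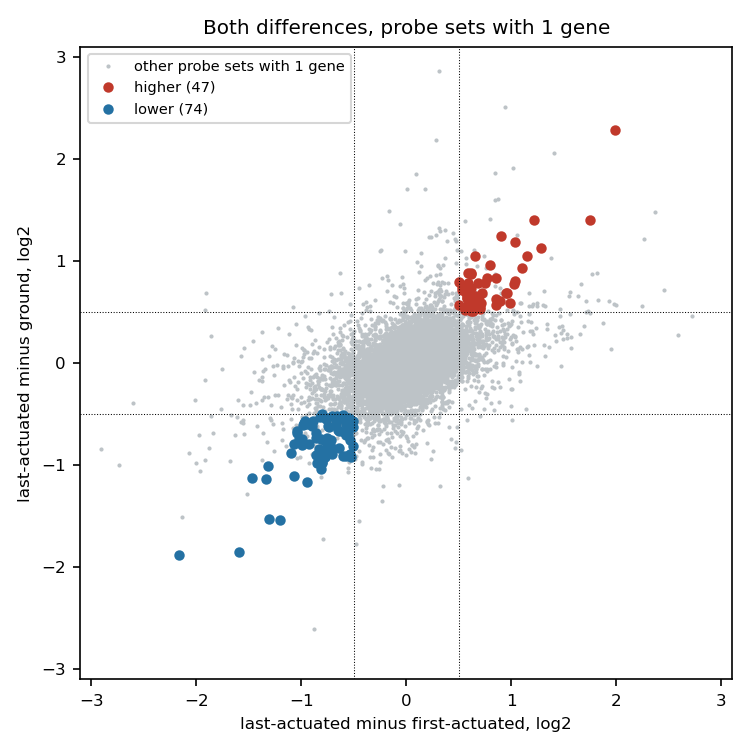
Each point is a probe set with 1 gene, placed by its last-actuated minus first-actuated difference (horizontal, log2) and its last-actuated minus ground difference (vertical, log2), which share the last-actuated arrays. Dotted lines mark 0.5 in size, and the 47 higher (red) and 74 lower (blue) members fill only part of the corners because the rule also limits the first-actuated minus ground difference and the level.

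The first-actuated minus ground difference of the members, limited to 0.4 by the rule, ran from -0.40 to 0.40 in higher members, with a median of -0.01. In lower members it ran from -0.39 to 0.39, with a median of 0.01. First-actuated roots were above ground roots in 23 and below them in 24 of the higher members, and above in 39 and below in 35 of the lower ones. The rule kept this difference small, so these medians and counts are a description only.

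The same rule with another group set apart found more genes for first-actuated roots and fewer for ground roots. With first-actuated roots apart, 132 probe sets were higher and 183 lower. With ground roots apart, 31 were higher and 59 lower. Lower members outnumbered higher ones in each of the 3 sets, which share the same 9 arrays and so are not separate observations. With the arrays centred on their median, the last-actuated set held 54 higher and 65 lower genes, a smaller imbalance.

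Across the array, 554 of 16722 probe sets with 1 gene, or 3.31%, had all last-actuated values above the other 6, and 638, or 3.82%, had all below. With limma, a linear model fitted across all 17481 named probe sets, 0.927% of probe sets were called higher and 0.881% lower in the last-actuated minus ground comparison at an adjusted p under 0.05. Of the members, 34 of 47 higher and 42 of 74 lower ones were among these calls. The last-actuated minus first-actuated comparison called 3.58% higher and 3.15% lower, and with them 44 of 47 higher and 62 of 74 lower members. The first-actuated minus ground comparison called 2.25% higher and 2.64% lower, with 1 of the 47 higher and 0 of the 74 lower members. The rule used these contrasts, so nothing is read from the members' counts.

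Within the members, the last-actuated arrays were not equally far out. The highest last-actuated value was that of replicate 3 in 29 of the 47 higher members, of replicate 1 in 11 and of replicate 2 in 7. In the 74 lower members the lowest value was that of replicate 2 in 35, of replicate 3 in 31 and of replicate 1 in 8. Against the mean of the other 6 arrays, the median deviations of last-actuated replicates 1, 2 and 3 were 0.64, 0.70 and 0.75 in higher members, and -0.65, -0.82 and -0.77 in lower members. The medians of the first-actuated and ground arrays lay between -0.10 and 0.13. All 3 last-actuated pools carried the differences, as the rule requires, with replicate 1 the least extreme in both directions by this median.

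The spread between last-actuated pools was wider in lower than in higher members by the median. The median SD of the last-actuated values was 0.0988 in higher members and 0.196 in lower ones, beside 0.128 over the 5882 probe sets with 1 gene and a highest group mean of at least 5. Dim values stood in both directions. Of the 74 lower members 21 had a last-actuated mean under 5, and of the 47 higher ones 11 had a first-actuated and 12 a ground mean under 5. Detection calls were not used here, so how far these dim values stand above background is not known. The gap between the nearest last-actuated array and the nearest other array had a median of 0.38 in higher and 0.32 in lower members. The smallest gaps were 0.02 and 0.03.

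**Figure D2:**
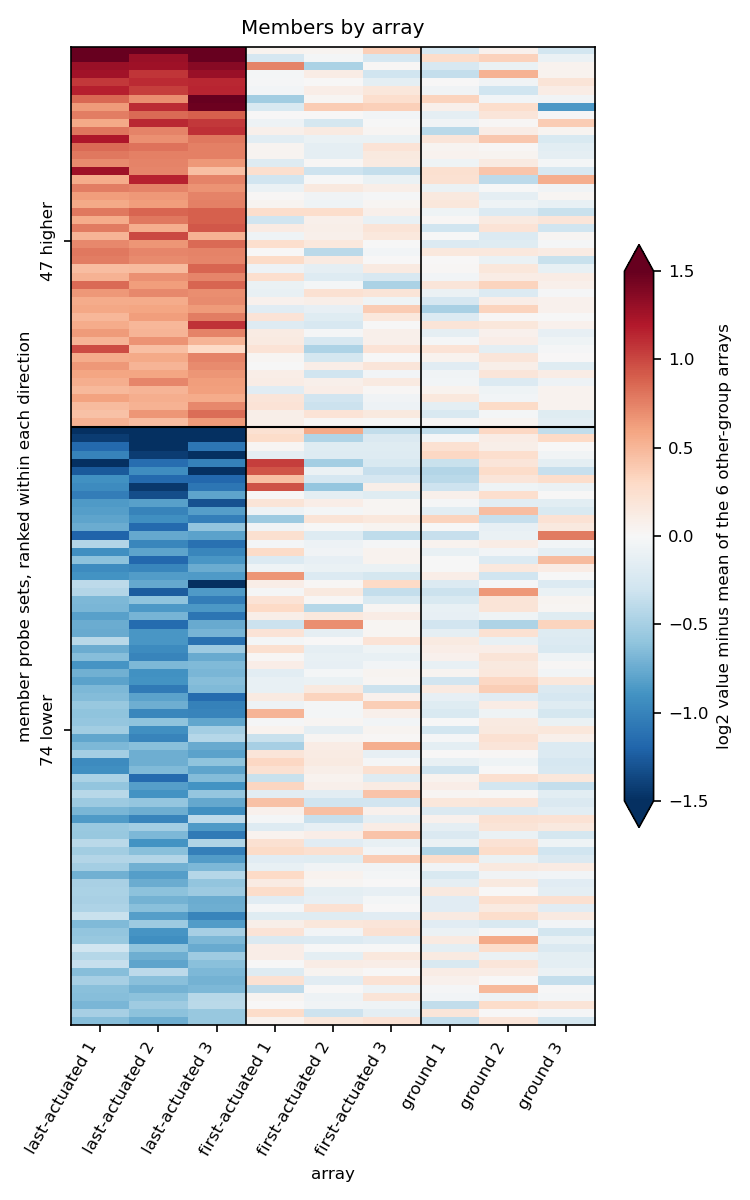
Colour gives each member's log2 value minus the mean of its first-actuated and ground arrays, with arrays across and the 47 higher and 74 lower members down the page, ranked by the smaller of their 2 differences. The 3 last-actuated columns stand apart by construction, and single first-actuated or ground arrays deviate in some rows, such as first-actuated replicate 1 in several lower members near the top.

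The top-ranked higher member was AT3G17400. AT3G17400 had log2 values of 5.29, 4.98 and 5.28 in last-actuated roots, against 3.1, 3.09 and 3.40 in first-actuated and 2.81, 3.11 and 2.77 in ground roots. It encodes an F-box protein, a substrate-recognition part of ubiquitin ligases. Its differences of 2.29 against ground and 1.99 against first-actuated roots on the log2 scale were the largest measured in the 47, and its last-actuated arrays lay at least 1.58 above any other array. In first-actuated and ground roots its level was close to the median of all probe sets of an array, and without detection calls no fold is given.

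A pair of loci of the cysteine- and histidine-rich C1 domain family, whose zinc-binding domain is known from lipid-sensing proteins, came next. The arrays read AT2G44380 at 6.08, 5.71 and 6.20 in last-actuated, 4.17, 4.39 and 4.17 in first-actuated and 4.69, 4.77 and 4.33 in ground roots. AT2G37800 measured 5.75, 5.73 and 5.83 in last-actuated roots, 5.20, 3.99 and 4.48 in first-actuated roots and 4.22, 4.36 and 4.51 in ground roots. The differences of AT2G44380 were 1.40 against ground and 1.75 against first-actuated roots and those of AT2G37800 1.40 against ground and 1.21 against first-actuated roots. The first-actuated values of AT2G37800 were widely spread, with replicate 1 closest to the last-actuated arrays. AT1G61840, a locus of the same family, was instead lower (-0.75 against ground and -1.02 against first-actuated roots). Members of this family thus stood on both sides.

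Transcription factors were among the higher members too. AT5G04840 had log2 values of 8.08, 8.14 and 8.15 in last-actuated roots, against 7.01, 7.03 and 6.88 in first-actuated and 7.03, 6.97 and 7.22 in ground roots. This locus encodes a basic leucine zipper protein, and its last-actuated arrays agreed closely, 0.86 above the nearest other array. The arrays read AT4G13620 at 6.47, 5.94 and 6.05 in last-actuated, 5.10, 5.15 and 5.15 in first-actuated and 5.43, 5.66 and 5.03 in ground roots. AT4G13620 belongs to the AP2/ERF family, many members of which act in ethylene and stress responses, and its differences were 0.78 against ground and 1.02 against first-actuated roots. AT5G46710, a PLATZ zinc-binding factor, had 0.78 against ground and 0.68 against first-actuated roots with means of 8.15 ± 0.05 in last-actuated, 7.47 ± 0.13 in first-actuated and 7.37 ± 0.04 in ground roots (SD, n = 3 each).

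ATL8, a membrane-bound RING ubiquitin ligase of the ATL family, was higher with more spread. ATL8 had log2 values of 5.99, 5.45 and 5.17 in last-actuated roots, against 4.97, 4.40 and 4.36 in first-actuated and 4.95, 5.13 and 4.47 in ground roots. Its last-actuated replicate 3 lay only 0.04 above the nearest ground array, so the groups were barely apart. The other 5 ATL probe sets were not called in any comparison (0 of 5), although 2 had an unadjusted p under 0.05 in the last-actuated minus ground and 1 in the last-actuated minus first-actuated comparison. ATL5 had -0.74 ± 0.20 (SE) and -0.53 ± 0.20 there, both opposite in sign to ATL8 (limma adjusted p = 0.118 and 0.167).

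Kinases and kinase-like receptors were further down the ranking of the higher members. The kinase locus AT5G38210 was instead lower (-0.53 against ground and -0.78 against first-actuated roots). So was the kinase locus AT3G61160 (-0.60 against ground and -0.57 against first-actuated roots). APK1A, a protein kinase, averaged 5.50 ± 0.10 in last-actuated, 4.84 ± 0.05 in first-actuated and 4.84 ± 0.15 in ground roots (SD, n = 3 each). The leucine-rich repeat receptor kinase AT2G16250 averaged 6.97 ± 0.05 in last-actuated, 6.32 ± 0.10 in first-actuated and 5.92 ± 0.13 in ground roots (SD, n = 3 each), a difference of 0.40 between the first-actuated and ground groups that lies just inside the rule's limit. AT4G31110, of the wall-associated kinase-like family, averaged 6.20 ± 0.03 in last-actuated, 5.63 ± 0.31 in first-actuated and 5.56 ± 0.41 in ground roots (SD, n = 3 each). Its last-actuated SD of 0.03 was far below those of the other groups.

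Enzymes of specialised and cell wall metabolism were also among the higher members. The arrays read AT2G38240 at 7.86, 7.67 and 7.90 in last-actuated, 6.57, 6.71 and 6.30 in first-actuated and 6.25, 7.12 and 6.66 in ground roots. AT2G38240 is a 2-oxoglutarate-dependent oxygenase, an enzyme class that hydroxylates hormones and defence compounds, and its differences were 1.13 against ground and 1.28 against first-actuated roots. The same class held 2 more higher members, AT3G46500 (0.65 against ground and 0.69 against first-actuated roots) and AT5G58660 (0.61 against ground and 0.90 against first-actuated roots), and 1 lower member, AT2G36690. Members of this enzyme class thus stood on both sides.

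AT3G47380 measured 7.24, 7.10 and 7.21 in last-actuated roots, 6.03, 6.17 and 6.24 in first-actuated roots and 6.02, 5.77 and 6.18 in ground roots. AT3G47380 belongs to the inhibitors of invertase and pectin methylesterase, and its last-actuated arrays lay 0.86 or more above the others, among which first-actuated and ground arrays overlapped. AT1G74320 had log2 values of 7.59, 7.67 and 7.72 in last-actuated roots, against 6.82, 6.83 and 6.78 in first-actuated and 6.69, 7.0 and 6.80 in ground roots. This choline kinase locus, of the first step towards phosphatidylcholine, had tight groups and differences of 0.83 against ground and 0.85 against first-actuated roots. MGL, methionine gamma-lyase, which breaks down methionine, averaged 9.76 ± 0.12 in last-actuated, 9.05 ± 0.27 in first-actuated and 9.18 ± 0.09 in ground roots (SD, n = 3 each).

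AT1G69520 measured 4.82, 5.39 and 5.31 in last-actuated roots, 4.18, 3.99 and 4.25 in first-actuated roots and 4.2, 4.27 and 4.63 in ground roots. AT1G69520 encodes a methyltransferase of the S-adenosylmethionine-dependent type, and its differences were 0.81 against ground and 1.04 against first-actuated roots. Further enzyme loci were higher by smaller amounts. The terpene synthase family locus AT5G48110 had 0.79 against ground and 0.58 against first-actuated roots, the glycosyl hydrolase AT4G29360 0.73 against ground and 0.62 against first-actuated roots, and the nitrilase-like AT5G12040 0.74 against ground and 0.53 against first-actuated roots. AT1G33790, of the jacalin lectin family, had 0.69 against ground and 0.95 against first-actuated roots, while JAL22, also a jacalin-type lectin, was lower. The groups of AT1G33790 were barely apart, since its last-actuated replicate 1 lay only 0.02 above the nearest ground array.

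Stress and protein-folding loci were also among the higher members. AT2G21640 had log2 values of 6.91, 7.39 and 7.74 in last-actuated roots, against 6.04, 6.65 and 6.63 in first-actuated and 6.35, 6.53 and 5.41 in ground roots. AT2G21640 is known as a marker of oxidative and mitochondrial stress, and its spread was wide, with ground replicate 3 the lowest of all arrays. The arrays read AT2G33735 at 5.30, 5.27 and 5.26 in last-actuated, 4.55, 4.37 and 4.65 in first-actuated and 4.56, 4.55 and 4.37 in ground roots. This DnaJ-domain locus, a co-chaperone type, had the tightest last-actuated values of the named members, with an SD of 0.02. AT1G72416, also with a DnaJ domain, averaged 10.67 ± 0.11 in last-actuated, 9.96 ± 0.16 in first-actuated and 10.12 ± 0.09 in ground roots (SD, n = 3 each), while the DnaJ locus AT1G74250 was lower (-0.52 against ground and -0.66 against first-actuated roots).

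HSA32, a heat-stress-associated protein that prolongs acquired heat tolerance, was among the brightest members. HSA32 had log2 values of 10.28, 10.15 and 10.34 in last-actuated roots, against 9.63, 9.73 and 9.82 in first-actuated and 9.46, 9.72 and 9.45 in ground roots. Its differences were 0.71 against ground and 0.53 against first-actuated roots. The last-actuated arrays were the highest, with a gap of 0.34 to the nearest array, which was first-actuated.

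The arrays read AT1G72660 at 8.99, 8.93 and 9.28 in last-actuated, 8.27, 8.33 and 8.22 in first-actuated and 7.79, 8.30 and 8.23 in ground roots. AT1G72660 encodes a GTP-binding protein of the DRG type, and ground replicate 1 was its lowest array. AT1G74240 measured 5.15, 5.19 and 5.09 in last-actuated roots, 4.25, 4.46 and 4.58 in first-actuated roots and 4.38, 4.58 and 4.41 in ground roots. AT1G74240 is a mitochondrial carrier, and AT3G21390, another carrier locus, was lower (-0.53 against ground and -0.82 against first-actuated roots). AT1G21050 had log2 values of 5.55, 5.39 and 6.19 in last-actuated roots, against 4.17, 4.72 and 4.94 in first-actuated and 5.03, 4.65 and 4.64 in ground roots. The arrays read AT5G55640 at 7.78, 7.74 and 7.69 in last-actuated, 6.97, 6.79 and 7.13 in first-actuated and 6.97, 6.95 and 6.77 in ground roots. For AT1G21050 and AT5G55640, with differences of 0.94 against ground and 1.1 against first-actuated roots and 0.84 against ground and 0.77 against first-actuated roots, no certain role can be given.

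The 5 brightest higher members were AT5G47830, AT1G72416, AT4G21105, HSA32 and MGL. AT5G47830 averaged 10.71 ± 0.08 in last-actuated, 10.20 ± 0.05 in first-actuated and 10.13 ± 0.11 in ground roots (SD, n = 3 each), and AT4G21105 averaged 10.29 ± 0.20 in last-actuated, 9.78 ± 0.06 in first-actuated and 9.49 ± 0.11 in ground roots (SD, n = 3 each). All differences of these 5 bright loci lay between 0.50 and 0.79.

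**Figure D3:**
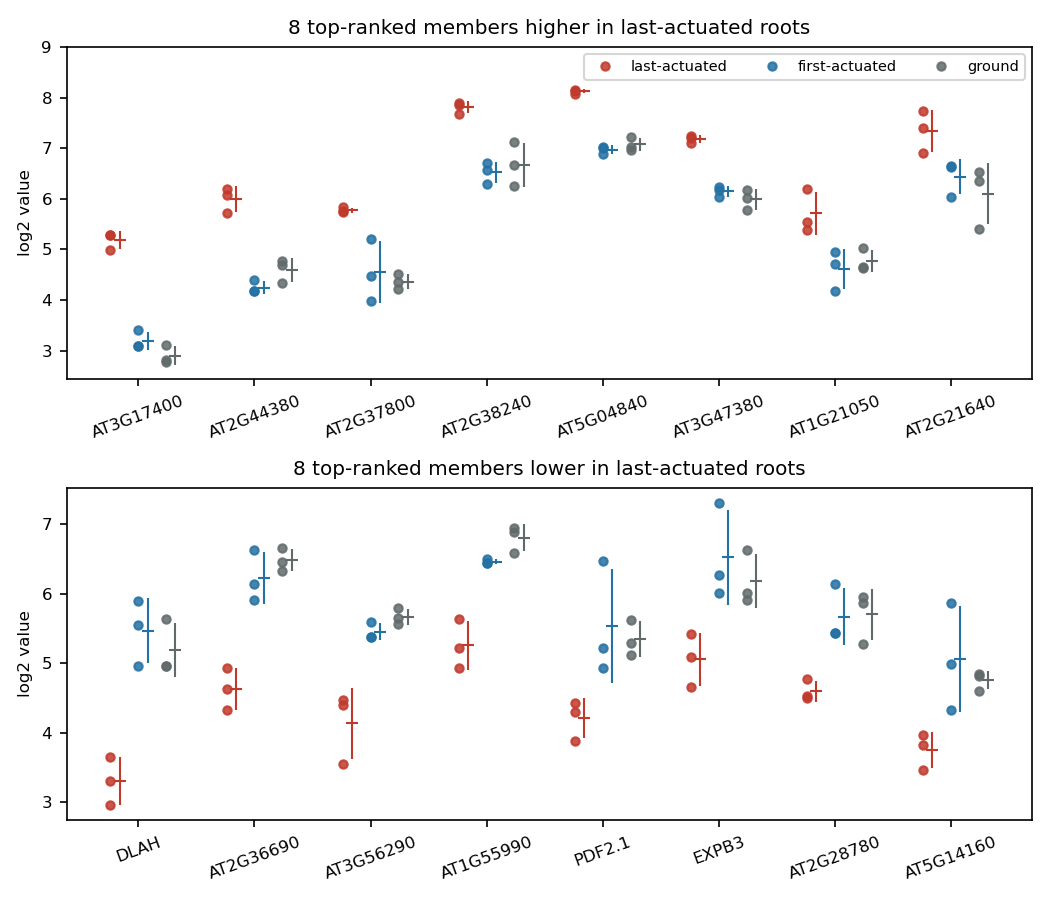
Dots are single arrays and bars the mean ± SD of 3 arrays (vertical axis, log2 value) for the 8 top-ranked higher (upper panel) and 8 top-ranked lower members (lower panel), with last-actuated roots left, first-actuated in the middle and ground right. AT3G17400 stands highest above its other arrays, and AT2G37800, PDF2.1, EXPB3 and AT5G14160 each have a first-actuated array apart from its group.

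The top-ranked lower member was DLAH, and other lipid loci stood further down the ranking. The arrays read DLAH at 3.31, 2.96 and 3.65 in last-actuated, 5.55, 5.89 and 4.96 in first-actuated and 4.96, 5.64 and 4.96 in ground roots. DLAH is an acylhydrolase, a lipase that releases fatty acids from membrane lipids, and its differences of -1.88 against ground and -2.16 against first-actuated roots were the largest measured in the 74, with a gap of 1.31 to the nearest array. Its last-actuated level was close to the median of all probe sets of an array, so no fold is given. AT2G23540 measured 5.55, 5.13 and 5.70 in last-actuated roots, 6.24, 6.28 and 6.33 in first-actuated roots and 6.29, 6.17 and 6.44 in ground roots. AT2G23540 and AT1G74460 are lipases of the GDSL type, and AT1G74460 averaged 4.53 ± 0.13 in last-actuated, 5.25 ± 0.11 in first-actuated and 5.29 ± 0.13 in ground roots (SD, n = 3 each).

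HOS3-1, of the family that elongates very long fatty acids, averaged 4.86 ± 0.26 in last-actuated, 5.82 ± 0.20 in first-actuated and 5.43 ± 0.08 in ground roots (SD, n = 3 each). The lipase AT3G62590 averaged 5.03 ± 0.23 in last-actuated, 5.67 ± 0.11 in first-actuated and 5.70 ± 0.25 in ground roots (SD, n = 3 each). In contrast to these lower lipid loci, AT4G22610, of the lipid transfer protein family, was higher (0.70 against ground and 0.57 against first-actuated roots).

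Expansins, which loosen cell walls during growth, gave 2 lower members. For EXPA20 a second probe set, described below, differed little (-0.04 against ground and -0.06 against first-actuated roots). EXPB3 had log2 values of 5.09, 5.42 and 4.66 in last-actuated roots, against 7.3, 6.26 and 6.01 in first-actuated and 5.91, 6.63 and 6.01 in ground roots. First-actuated replicate 1 was well above the other first-actuated arrays. The arrays read EXPA20 at 5.99, 5.50 and 5.33 in last-actuated, 6.14, 6.14 and 6.16 in first-actuated and 6.46, 6.59 and 6.46 in ground roots. The differences were -1.13 against ground and -1.47 against first-actuated roots for EXPB3 and -0.90 against ground and -0.53 against first-actuated roots for EXPA20, in which ground arrays were all above the first-actuated ones.

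The other 21 expansin and expansin-like probe sets had a median of 0.04 in the last-actuated minus ground comparison. Of them, limma called 0 there and 1 in the last-actuated minus first-actuated comparison, with 1 and 8 at an unadjusted p under 0.05. EXPB1 was lower in last-actuated roots than in first-actuated ones (-1.40 ± 0.14, adjusted p = 0.000396) and higher in first-actuated than in ground roots (1.24 ± 0.14, adjusted p = 0.00104). EXLA2 was lower in first-actuated than in ground roots (-1.2 ± 0.23, adjusted p = 0.0161, and 0.0115 to 0.0642 with an array left out).

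A defensin and a lectin were also among the lower members. PDF2.1 measured 3.88, 4.30 and 4.43 in last-actuated roots, 6.47, 4.93 and 5.21 in first-actuated roots and 5.11, 5.62 and 5.29 in ground roots. PDF2.1 encodes a defensin-like peptide, and its differences of -1.14 against ground and -1.33 against first-actuated roots came with a first-actuated SD of 0.82. JAL22 had log2 values of 6.51, 6.47 and 6.71 in last-actuated roots, against 7.39, 7.35 and 7.35 in first-actuated and 7.44, 7.61 and 7.56 in ground roots. JAL22 is a jacalin-related lectin, a sugar-binding protein, and its arrays formed tight groups with differences of -0.97 against ground and -0.80 against first-actuated roots.

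Of the 72 other probe sets for defensins and related cysteine-rich genes, 2 were called higher in last-actuated than in ground roots and 0 lower, against a median of -0.01. PDF1.4 averaged 9.90 in last-actuated, 9.42 in first-actuated and 8.70 in ground roots (last-actuated minus ground 1.2 ± 0.17, adjusted p = 0.00494). LCR35 averaged 4.76 in last-actuated, 2.50 in first-actuated and 3.54 in ground roots, and its call against ground was lost without any of 6 of the 9 arrays. Apart from JAL22, 4 probe sets carry a JAL symbol, a count that leaves out jacalin-type loci without one such as AT1G33790. Of these 4, limma called 0 in any comparison, and 0 had an unadjusted p under 0.05. JAL34, the brightest of them, averaged 10.30 in last-actuated, 10.23 in first-actuated and 10.27 in ground roots.

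Further enzymes were lower. The arrays read AT2G36690 at 4.93, 4.32 and 4.63 in last-actuated, 6.63, 5.90 and 6.14 in first-actuated and 6.33, 6.46 and 6.65 in ground roots. AT2G36690, the oxygenase named above, had differences of -1.86 against ground and -1.59 against first-actuated roots and a gap of 0.97 between its nearest arrays. AT5G38200 measured 6.49, 6.31 and 6.49 in last-actuated roots, 7.24, 7.28 and 7.34 in first-actuated roots and 7.15, 7.78 and 7.08 in ground roots. AT5G38200 belongs to the glutamine amidotransferase-like loci, with differences of -0.91 against ground and -0.86 against first-actuated roots. FDH, mitochondrial formate dehydrogenase, which oxidises formate, averaged 8.27 ± 0.22 in last-actuated, 9.32 ± 0.28 in first-actuated and 8.94 ± 0.10 in ground roots (SD, n = 3 each), with first-actuated roots 0.37 above ground.

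The peroxidase locus AT1G68850 had differences of -0.91 against ground and -0.57 against first-actuated roots. Its last-actuated replicate 3 lay only 0.06 below the nearest first-actuated array, and its first-actuated minus ground difference was -0.34. The papain-type cysteine protease AT4G16190, among the brightest lower members, averaged 8.50 ± 0.19 in last-actuated, 9.25 ± 0.20 in first-actuated and 9.23 ± 0.19 in ground roots (SD, n = 3 each). Short-chain dehydrogenase loci stood on both sides, with AT1G64590 lower (-0.61 against ground and -0.98 against first-actuated roots) and AT4G24050 higher (0.51 against ground and 0.62 against first-actuated roots). Methyltransferases did too, since AT5G38020 and AT2G41380 were lower (-0.71 against ground and -0.57 against first-actuated roots and -0.55 against ground and -0.65 against first-actuated roots) while AT1G69520 was higher.

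Peptide signals and transcription regulators were represented by several lower members. CLE41, whose peptide keeps vascular stem cells dividing, averaged 5.34 ± 0.18 in last-actuated, 6.24 ± 0.17 in first-actuated and 5.96 ± 0.09 in ground roots (SD, n = 3 each). LSH5, of the plant-specific ALOG family of nuclear proteins, averaged 5.67 ± 0.10 in last-actuated, 6.44 ± 0.37 in first-actuated and 6.51 ± 0.15 in ground roots (SD, n = 3 each). The Dof factor AT2G28510 averaged 7.10 ± 0.10 in last-actuated, 7.75 ± 0.04 in first-actuated and 7.76 ± 0.12 in ground roots (SD, n = 3 each), and the basic helix-loop-helix locus AT1G61660 averaged 8.03 ± 0.15 in last-actuated, 8.78 ± 0.15 in first-actuated and 8.65 ± 0.13 in ground roots (SD, n = 3 each). The Myb-type locus AT3G25790 averaged 4.83 ± 0.40 in last-actuated, 5.60 ± 0.25 in first-actuated and 5.75 ± 0.51 in ground roots (SD, n = 3 each).

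Of the 15 other CLE probe sets, limma called 0 between last-actuated and ground roots and 0 between last-actuated and first-actuated roots, with 4 at an unadjusted p under 0.05 in each. CLE20 was lower in first-actuated than in ground roots (-0.84 ± 0.15, adjusted p = 0.0125). LSH9, the other LSH gene with a probe set, had 0.38 ± 0.17 and 0.47 ± 0.17 against ground and first-actuated roots, of the opposite sign to LSH5 (adjusted p = 0.377 and 0.145).

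PSBW, a nuclear-encoded subunit of photosystem II, averaged 6.24 ± 0.11 in last-actuated, 6.94 ± 0.23 in first-actuated and 6.76 ± 0.23 in ground roots (SD, n = 3 each). Photosystem genes are expressed mainly in shoots, and shoot markers were examined beside it. Of 17 shoot markers 2 were measured, and their summed linear level ran from 316 to 350 in last-actuated, 316 to 347 in first-actuated and 263 to 296 in ground arrays, almost all of it from RCA. RCA averaged 8.34, 8.32 and 8.08, and LHCB4.2, a light-harvesting protein, 2.88, 2.91 and 2.85, with neither called. The part of shoot tissue in the PSBW values was not tested. PSBY, another subunit, was lower in first-actuated than in ground roots (-0.47 ± 0.11, adjusted p = 0.045, and 0.0226 to 0.144 with an array left out), and PSB27 was not called.

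The remaining top-ranked lower members have no certain role. AT3G56290 measured 4.39, 3.55 and 4.47 in last-actuated roots, 5.59, 5.38 and 5.38 in first-actuated roots and 5.79, 5.65 and 5.56 in ground roots. AT1G55990 had log2 values of 5.63, 5.21 and 4.93 in last-actuated roots, against 6.50, 6.44 and 6.44 in first-actuated and 6.94, 6.88 and 6.58 in ground roots. The arrays read AT2G28780 at 4.77, 4.52 and 4.50 in last-actuated, 6.14, 5.43 and 5.43 in first-actuated and 5.28, 5.87 and 5.95 in ground roots. In AT3G56290 last-actuated replicate 2 lay furthest down, and in AT1G55990 replicate 3 did. AT5G14160 measured 3.96, 3.46 and 3.82 in last-actuated roots, 5.86, 4.33 and 4.99 in first-actuated roots and 4.60, 4.84 and 4.82 in ground roots. AT1G73885 had log2 values of 5.92, 5.63 and 6.17 in last-actuated roots, against 6.95, 6.82 and 6.78 in first-actuated and 7.04, 7.21 and 6.97 in ground roots. The arrays read AT4G26130 at 5.71, 5.75 and 5.26 in last-actuated, 6.76, 6.67 and 6.59 in first-actuated and 6.55, 6.41 and 6.41 in ground roots. AT5G14160 had 1 high first-actuated array, while the other groups of AT1G73885 and AT4G26130 were tight. AT5G54370 measured 7.64, 7.51 and 7.40 in last-actuated roots, 7.88, 8.62 and 8.59 in first-actuated roots and 8.76, 8.08 and 8.65 in ground roots. AT1G32690 had log2 values of 4.02, 4.45 and 4.41 in last-actuated roots, against 5.46, 5.02 and 4.83 in first-actuated and 4.87, 5.12 and 6.00 in ground roots. The arrays read AT4G33610 at 8.19, 7.65 and 7.51 in last-actuated, 8.60, 8.56 and 8.61 in first-actuated and 8.69, 8.74 and 8.59 in ground roots. In AT5G54370 first-actuated replicate 1 lay just 0.24 above the last-actuated arrays, and in AT1G32690 ground replicate 3 was the highest.

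The differences of these 9 loci were between -0.88 and -1.54 against ground and between -0.81 and -1.32 against first-actuated roots. The brightest lower members by ground level were AT4G23680, AT2G47950, AT1G50740, AT4G16190 and AT1G17145. AT4G23680, of the major latex protein-like family, averaged 9.61 ± 0.14 in last-actuated, 10.15 ± 0.07 in first-actuated and 10.36 ± 0.25 in ground roots (SD, n = 3 each). AT2G47950 averaged 9.06 ± 0.06 in last-actuated, 9.60 ± 0.24 in first-actuated and 9.60 ± 0.15 in ground roots (SD, n = 3 each), which made its 2 differences equal to the second decimal.

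For 5 member genes another probe set was on the array, 2 of them paired with that gene alone and 3 shared with a second gene. These other probe sets share the RNA of the same arrays but not the probes that the rule used. Of the 5, 0 reached 0.5 in both differences, 4 had both differences in the member's direction, and 0 were called by limma in any comparison, with 1 unadjusted p under 0.05. EXPA20's other probe set read 5.33, 5.35 and 5.00 in last-actuated, 5.35, 5.36 and 5.15 in first-actuated and 5.34, 5.38 and 5.10 in ground roots. Its differences of -0.04 and -0.06 stand beside -0.90 and -0.53 for the selected probe set.

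AT3G56410, the other gene with a second probe set of its own, had -0.22 and -0.19 there against -0.54 and -0.68. The shared probe set of AT3G59110, a kinase locus, had 0.13 and 0.46 against 0.63 and 0.86. That of AT3G03700 had -0.15 and -0.23 against -0.60 and -0.95, and that of AT1G55265 had -0.02 and 0.11 against -0.58 and -0.97, the exception in direction. Levels of different probe sets depend on their probes and are not compared. Apart from that of EXPA20, these other probe sets averaged under 5 in every group. The shared probe set of AT3G59110 averaged only 2.65 in last-actuated, 2.19 in first-actuated and 2.52 in ground roots. How far such dim values stand above background is not known, so nothing is read from their small differences.

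**Figure D4:**
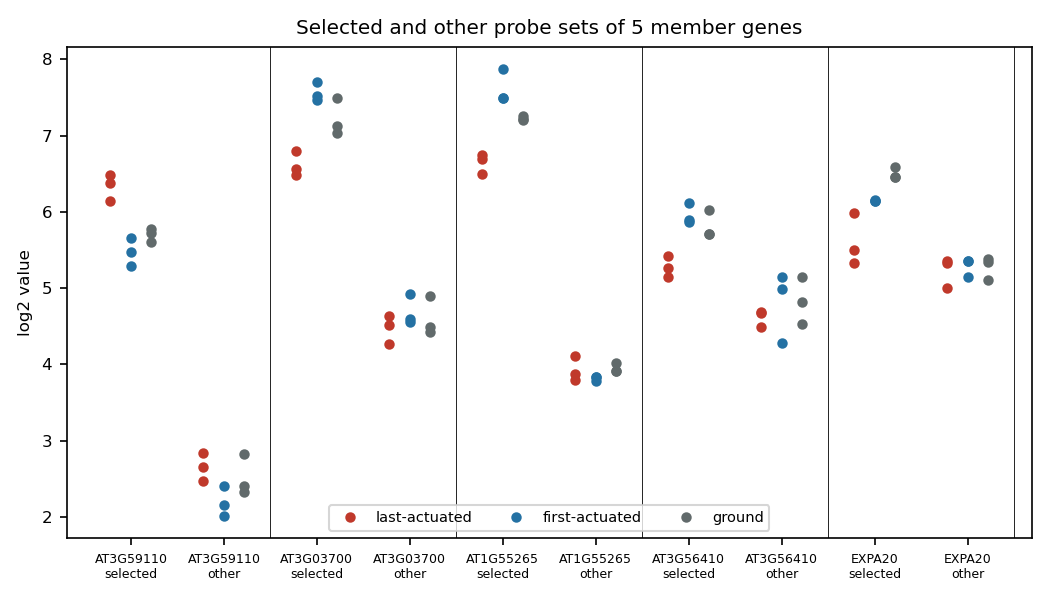
Dots are single arrays (vertical axis, log2 value) for the selected and the other probe set of each of 5 member genes, with last-actuated roots left, first-actuated in the middle and ground right. The selected probe sets separate the last-actuated arrays by construction, and in each of the other probe sets the last-actuated arrays overlap those of at least 1 other group.

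Members were spread over the 5 chromosomes. Of the 47 higher members 12, 7, 6, 10 and 12 were on chromosomes 1 to 5, and of the 73 lower members with a listed chromosome there were 21, 14, 15, 11 and 12. Within 5 genes of each other there were 3 pairs. AT1G74240 (higher) and AT1G74250 (lower) are adjacent, as are AT5G38200 and the kinase locus AT5G38210, both lower, and AT4G36860 (higher) and HOS3-1 (lower) are 3 places apart. Neighbouring members therefore included pairs of opposite direction.

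The median gene length in the RefSeq table was 2303 bp in higher members and 1863 bp in the 72 lower members with a length, beside 2431 bp in the probe sets with 1 gene and a highest group mean of at least 5. All 47 higher members and 72 of the 74 lower ones were listed as protein-coding.

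Pathway lists of 501 loci were set beside the members. Of these, 83 had a named probe set, 11 of 22 lists had at least 3, and 4 members stood in a list: HSA32 (heat shock), ATL8 (sugar-repressed and energy), AT2G21640 (oxidative and xenobiotic response) and AT1G74460 (suberin and Casparian strip). The other genes of those lists, which the rule did not select, were read from the fit over all named probe sets.

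Of the 9 other heat shock genes, 4 were higher in last-actuated than in ground roots, 4 in first-actuated than in ground roots and 1 in last-actuated roots than in first-actuated ones, with none lower. Their median differences were 0.37, 0.27 and 0.17, beside medians of 0.00, 0.01 and 0.00 over all named probe sets. ATHSP22.0, a small heat shock protein, averaged 9.12 in last-actuated, 8.65 in first-actuated and 8.14 in ground roots, and was called in all 3 comparisons (adjusted p = 0.000202 for last-actuated minus ground, 0.00561 for first-actuated minus ground and 0.00603 for last-actuated minus first-actuated). AT1G71000 had 1.71 ± 0.12 against ground and 0.01 ± 0.12 against first-actuated roots (adjusted p = 0.000114 and 0.977). AT3G07150 had 1.33 ± 0.12 and 0.31 ± 0.12 (adjusted p = 0.000389 and 0.179). HSA32, whose first-actuated minus ground difference was 0.18, was the list's gene that met the rule.

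Of the 5 other genes of the sugar-repressed and energy list, all 5 were higher in last-actuated roots than in first-actuated ones and all 5 lower in first-actuated than in ground roots, while 1 was higher in last-actuated than in ground roots. ETFQO, which passes electrons from amino acid breakdown to respiration, averaged 9.32 in last-actuated, 7.79 in first-actuated and 9.07 in ground roots. MCCB, of leucine breakdown, averaged 9.01 in last-actuated, 7.55 in first-actuated and 8.55 in ground roots. The call against ground was that of AT3G15630 (0.42 ± 0.08, adjusted p = 0.0296, and up to 0.106 with an array left out). For ATL8 the rule itself set the first-actuated and ground means close together.

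**Figure D5:**
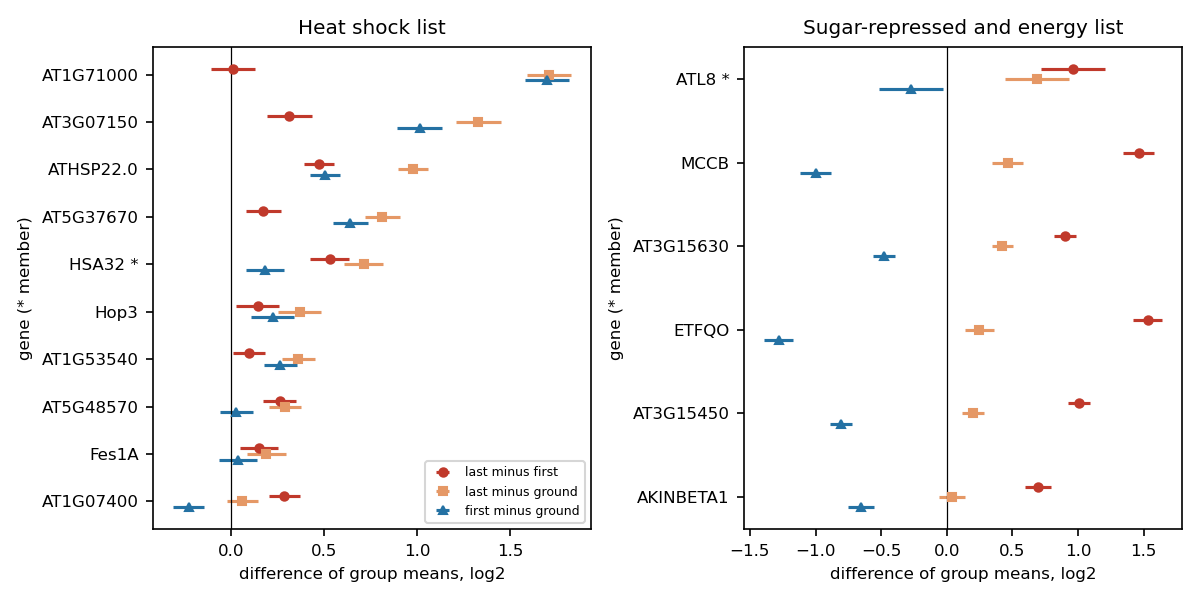
Points are differences of group means with limma's standard error (horizontal axis, log2) for measured genes of the heat shock list (left) and the sugar-repressed and energy list (right), with members starred. In the heat shock list AT1G71000 differs from ground in both in-flight groups, and in the sugar-repressed list the genes other than ATL8 lie near 0.04 to 0.46 in last-actuated minus ground and below 0 in first-actuated minus ground.

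Of the 7 other genes of the oxidative list, 0 were called in the last-actuated minus ground comparison (4 at an unadjusted p under 0.05), and STZ, a zinc finger repressor, was lower in last-actuated roots than in first-actuated ones (-0.87 ± 0.12, adjusted p = 0.00203). Of the suberin list 1 other gene was measured, AT1G61590, and it was not called.

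Of the 7 genes of the list for protein folding in the endoplasmic reticulum, 3 were higher in last-actuated than in ground roots and 2 in last-actuated roots than in first-actuated ones. ATERDJ3B, a co-chaperone left out of the members by name, averaged 8.31 in last-actuated, 7.40 in first-actuated and 7.62 in ground roots, and otherwise met the rule. BZIP17, a transcription factor of this response, had 0.45 ± 0.10 against ground and 0.45 ± 0.10 against first-actuated roots (adjusted p = 0.0473 and 0.0209), just short of the 0.5 of the rule. BIP1, a main chaperone of that compartment whose near-identical paralog may share its probes, had 0.71 ± 0.13 against ground and 0.24 ± 0.13 against first-actuated roots (adjusted p = 0.027 and 0.389). The 3 calls against ground were lost without any of 6 of the 9 arrays for ATERDJ3B and BIP1 and without any of 8 for BZIP17. With an array left out the adjusted p reached 0.135 for ATERDJ3B, 0.156 for BZIP17 and 0.0937 for BIP1, and 0.078 for BZIP17 against first-actuated roots.

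Of the auxin response list 10 genes were measured and 0 were members. Between last-actuated and ground roots 1 was called lower, and between last-actuated and first-actuated roots 1 was higher and 2 lower. GH3.3, which conjugates auxin to amino acids, was lower in last-actuated than in ground (-2.61 ± 0.22, adjusted p = 0.000299) and first-actuated roots (-0.88 ± 0.22, adjusted p = 0.0445, and up to 0.162 with an array left out). It missed the rule through its first-actuated minus ground difference of -1.73. The lists for hypoxia (4 measured), touch and calcium (6), abscisic acid and cold (5), gibberellin and brassinosteroid (3), metals (5) and defence (6) also held 0 members. Of these 29 genes, KIN1, a cold-induced gene, was higher (0.88 ± 0.12, adjusted p = 0.0038) and the ubiquitin ligase PUB24 lower (-0.83 ± 0.13, adjusted p = 0.0119, and up to 0.061 with an array left out) in last-actuated than in ground roots.

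Root markers were measured in part. Of 10 root hair markers 2 were measured, EXPA18 and EXPA7, with neither called. EXPA18, a root hair expansin, averaged 6.13 in last-actuated, 6.09 in first-actuated and 6.09 in ground roots. Of 5 cortex markers 3 were measured, and their summed linear level ran from 4607 to 5486 in last-actuated, 5391 to 5684 in first-actuated and 5420 to 5675 in ground arrays. Most of that sum came from PYK10, an abundant root beta-glucosidase, which averaged 12.19 in last-actuated, 12.40 in first-actuated and 12.38 in ground roots and was not called, nor was AT1G62500. The third, AT1G62510, was higher in last-actuated roots than in first-actuated ones (1.36 ± 0.26, adjusted p = 0.0112) and lower in first-actuated than in ground roots (-1.2 ± 0.26, adjusted p = 0.0263, and up to 0.0899 with an array left out). No endodermis, stele or root cap marker was measured. In whole roots, fewer cells of a type and less RNA per cell cannot be told apart.

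At the rule's limits, AT5G47830 (0.502), AT4G21105 (0.503) and AT3G26700 (0.508) were the higher members with the smallest smaller difference, and DER1 (0.492), AT2G25950 (0.487) and AT1G29030 (0.483) lay just outside. Among lower genes AT3G57450 (0.500), AT3G03790 (0.504) and AT1G74750 (0.506) lay inside, and AT3G56880 (0.494), AT5G20885 (0.483) and AT3G18295 (0.479) outside. DER1, a protein of endoplasmic reticulum quality control, was thus 0.01 from membership. By level, AT5G19340 (5.00, just under the limit) and AT1G08280 (4.99) were the nearest outside, and by the first-actuated minus ground limit AT5G37340 and AT2G05915 (0.40 each, just over it).

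Beside ATERDJ3B, the genes left out by name that met the rest of the rule were WRKY29, a defence transcription factor, with 1.03 and 1.38, and the glycosyltransferases UGT73B3 (-1.12 and -0.81), UGT89B1 (-0.75 and -0.53) and UGT74B1 (-0.60 and -0.92).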

How the data were processed

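Each group had 3 arrays. The log2 values are those deposited; RMA, oligo, limma, R 4.0.0 and TAIR10 are the names given for them per the submitters' processing notes. RMA as usually run corrects background, normalizes by quantiles and summarises probes, which would remove a change shared by most transcripts. Array medians ran from 3.27 to 3.35. No detection call, slide or scan date was used, so batches could not be examined, and the number of arrays limits the precision.

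The platform annotation gave the gene of a probe set, and the RefSeq table of TAIR10.1 the current symbols and the gene order. Of 38408 probe sets, 16722 had a single gene, 759 more than 1 and 20927 none listed. The RefSeq table held 16574 of the 16722 genes and 119 of the 121 members.

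Group means, SDs and differences were computed from the deposited values, and folds are powers of 2 of differences. The linear model was limma 3.58.1 under R 4.3.3, with lmFit and eBayes on all 9 arrays and no batch term. It covered the 17481 probe sets with at least 1 gene, with Benjamini-Hochberg adjustment over all of them and calls at an adjusted p under 0.05. All adjusted p-values and standard errors come from it, and it was tested on simulated data. Of 501 list loci and 61 marker loci, 83 and 7 were measured, and 13 list names were dropped because locus and symbol disagreed in the RefSeq table. The members, lists and tests were chosen with earlier results of these data known.

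Members were named by rank on the smaller of their 2 differences in size (the first 15 per direction, with all array values), by level (the 5 brightest), by list, gene family or neighbouring member, and by nearness to a limit of the rule. Other genes named were those with the smallest p-values in a list, up to 4 each, and genes of families with a member. Further members were named for a known role after their values were seen. Same-numbered replicates did not deviate together, with 9 correlations between -0.12 and 0.06 and 0 above 0.1, so they were not treated as pairs. Alternatives were other limits in the rule, other sets of probe sets, repeated normalization, centring, other limma settings, a replicate block and leaving out each array. Promoter motifs and protein features were not analysed here.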

Additional observations from a re-analysis of the deposited data

Results flagged for a closer look

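The rule was also applied to the 20927 unnamed probe sets, which enter no comparison of the report. Of these, 65 met it as higher and 107 as lower in last-actuated roots, and nothing more can be said of them without a gene.

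For 3 genes outside the members, all from a list or gene family above, the 2 in-flight groups moved in opposite directions from ground. Each group's difference from ground was called, and the difference between the in-flight groups was itself called by limma. Such genes over the whole array were not counted here. AT3G15630, of the sugar-repressed and energy list, had 0.42 in last-actuated minus ground and -0.48 in first-actuated minus ground, with 0.90 ± 0.08 (SE) between the in-flight groups (adjusted p = 0.00019). PUB24, a ubiquitin ligase of the defence list, had -0.83 and 1.04, with -1.88 ± 0.13 between them (adjusted p = 4.89e-05). LCR35, a cysteine-rich gene, had 1.22 and -1.04, with 2.26 ± 0.24 between them (adjusted p = 0.000481). Its first-actuated mean lay below, and its ground mean close to, the median of all probe sets of an array. How far these LCR35 values stand above background is not known.
With 1 array left out, the calls against ground were lost in some cases, with adjusted p up to 0.106 for AT3G15630 and 0.061 for PUB24 in last-actuated roots, and up to 0.121 and 0.114 for LCR35 in last-actuated and first-actuated roots.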

How the results depend on the processing

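The member counts of 47 higher and 74 lower followed the rule's limits. With both differences at least 0.4 there were 76 higher members, and at least 0.7 there were 14 higher and 33 lower. With a highest group mean of at least 6 there were 46 lower, and over all probe sets of the table, named or not, 114 higher and 183 lower. Leaving out each array in turn gave 44 to 63 higher and 62 to 101 lower genes. These held at least 39 of the 47 higher and 59 of the 74 lower members. Calls between last-actuated and ground roots, 316 in all, ran from 179 to 333 with an array left out, the lowest being without last-actuated replicate 2 (179), last-actuated replicate 3 (182) or ground replicate 2 (202). Calls between last-actuated and first-actuated roots, 1177 in all, ran from 724 (without last-actuated replicate 3) to 1119, and were 1794 over all probe sets. Calls between first-actuated and ground roots, 855 in all, ran from 549 (without ground replicate 1; 557 without ground replicate 2) to 807, and were 512 with only these groups in the fit. The causes were not tested, beyond fewer arrays or more probe sets by construction. With a replicate block the calls were 247, 1035 and 723, each within 1.5 times. Repeating the quantile normalization gave 39 higher and 62 lower, of which 36 and 59 were members. Centring the arrays on their median gave 54 higher and 65 lower, of which 46 and 64 were members. Of 660 recomputed values of 60 differences of named members, 0 changed sign or moved by 1 SD or more. The rule chose these differences, and leaving out an array cannot change their sign, so nothing is read from this count. Of 62 called values of other genes, 43 kept their call under all alternatives run and 0 changed sign. Promoter and protein alternatives were not run. Each group came from a single tube, and signal over background was not known for dim members.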
